A study of Mus musculus with 34 samples.

Results

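Somatostatin (SST) interneurons are inhibitory GABA neurons of the cortex and hippocampus, and this account covers their ribosome-bound mRNA in mice given a single dose of pentylenetetrazol (PTZ) against mice given saline. The members are the 7 SST libraries that the sample titles place in batch 2, 3 after PTZ and 4 after saline, out of 34 libraries in the series, and every gene of their table was used. All 7 came from SstCre mice carrying RiboTag on a C57/BL6 background at postnatal day 60. In RiboTag, Cre switches the ribosomal protein Rpl22 to a version with an HA tag, and an antibody to the tag then pulls down ribosomes with the mRNA they hold. The Cre comes from the Sst gene and acts in any cell that uses that gene or used it earlier. The tissue label reads cortex and hippocampus, while the protocol speaks of cortices. Dose, time after injection and seizure behaviour are not given in the sources used here. Libraries used beside these were PV saline (n = 2) from the same table, and PV PTZ (n = 4) and PV saline (n = 3) of batch 1. All of these PV libraries came from PvalbCre mice with RiboTag. SST libraries of batch 4 after contextual fear conditioning, CFC (n = 3), or from the home cage (n = 3) were also used. These PV and SST libraries were at postnatal day 60 too. PTZ blocks GABA receptors, and the series uses it to set the effects of learning beside those of broad network excitation.

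Strong firing lets calcium into a neuron and starts kinases that act on transcription factors already present, such as CREB and the serum response factor. These switch on immediate early genes, which need no newly made protein for their transcription. Many of them encode further transcription factors, others act directly at synapses or on signalling, and a later set of delayed genes follows. SST interneurons inhibit the distal dendrites of pyramidal cells and are themselves driven by strong local activity.

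The 7 libraries held between 13763931 and 18413104 counts, and the 2 PV saline libraries of the table held 6161764 and 4933110. The Sst transcript itself stood between 1746 and 3398 CPM (read counts scaled to library size) in the SST libraries and at 68.0 and 54.3 CPM in the PV libraries, while Pvalb stood between 3.90 and 12.0 CPM against 362 and 243 CPM. Excitatory, glial and vascular markers were measured in every library, so RNA of other cells was part of each pull-down. Replicates are numbered as in the labels. Whether each library is 1 animal is not said there, and the p-values cover only the spread among these libraries, which may be technical. Saline replicate 1 stood apart from the rest, at -33.8 on a first principal component that held 34.0% of the variance, followed by saline replicate 4 at -17.7, while the other 5 libraries lay between 2.84 and 22.3. Values without saline replicate 1 are given below for Sst, for transcript length and for the ribosomal protein, oxidative phosphorylation, excitatory and vascular lists. For Pvalb, which was highest in that library, no value without it is given.

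In SST libraries, 17 genes rose after PTZ and none fell, out of 11784 tested, which is 0.144% of them (edgeR quasi-likelihood test, adjusted p under 0.05). Of the 17, 8 encode immediate early transcription factors (Fosb, Npas4, Fos, Junb and Egr1 to Egr4). The others encode the synaptic regulator Arc, the phosphatases Dusp1 and Dusp6, the mRNA decay regulators Zfp36 and Btg2, the prostaglandin enzyme Ptgs2, the thyroid hormone enzyme Dio2, the G protein regulator Rgs4 and the small GTPase Rasl11a. The rises ran from 0.76 for Rgs4 to 5.40 for Fosb on the log2 scale. In all 17, every PTZ library lay above every saline library, a pattern that 4.57% of all tested genes showed. The opposite pattern, every PTZ library below every saline library, was seen for 5.84% of genes. The unadjusted p was under 0.05 for 511 genes, where 589 would be expected with no difference anywhere. The uncalled ones among them split into 237 higher and 257 lower. DESeq2 called 35 genes higher and 3 lower, limma voom 27 and 0, and edgeR on the 7 SST libraries alone 34 and 4, without Fos and Btg2. Blocking on replicate number left 8 genes.

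**Figure D1:**
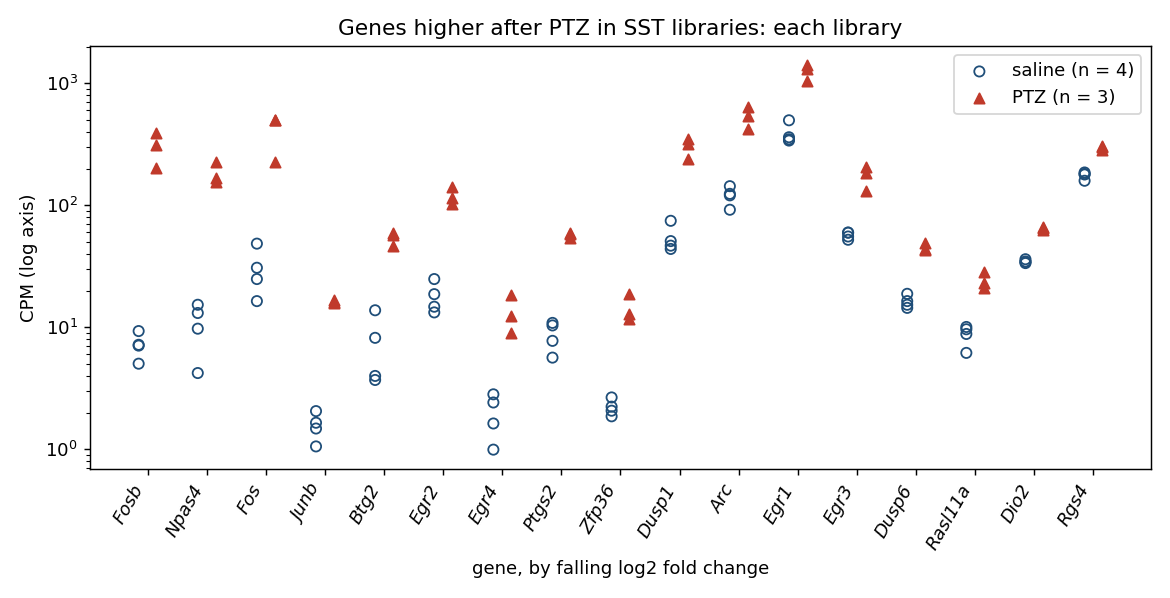
CPM (log axis) of the 17 called genes in each SST library of batch 2, open circles for saline and triangles for PTZ, genes ordered by falling log2 fold change. In every gene the PTZ libraries lie above all saline libraries, and the gap narrows from Fosb on the left to Rgs4 on the right.

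**Figure D2:**
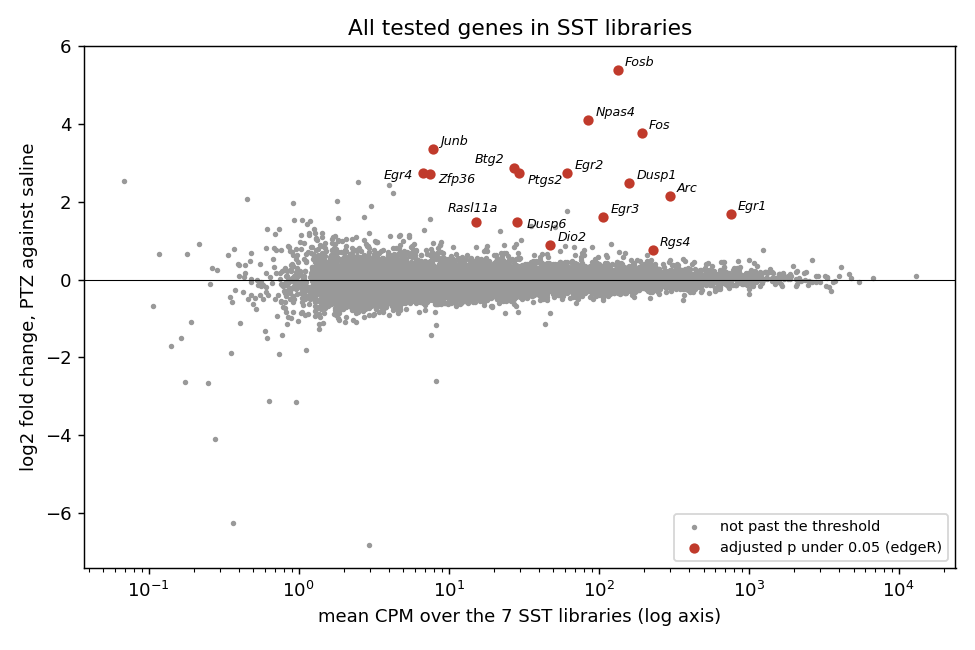
Log2 fold change of PTZ against saline for all 11784 tested genes against their mean CPM over the 7 SST libraries (log axis), with called genes in red. The called genes all lie above 0 and span low (Egr4, Zfp36) to high (Egr1) levels.

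Among the Fos family, which forms the AP-1 factor with Jun proteins, Fosb moved most. Its level was 9.31, 7.08, 5.03 and 7.19 CPM in the 4 saline libraries and 204, 392 and 315 CPM in the 3 PTZ libraries. The lowest PTZ library stood 21.9 times above the highest saline library, and the log2 fold change was 5.40 ± 0.24 (SE), a 42.2-fold rise with an adjusted p of 6.04e-07. Fosb lies at chr7:19302696-19310051 (GRCm38, minus strand), with no exon shared with another annotated gene. Fos, the founding member, was at 48.5, 16.4, 24.9 and 30.8 CPM after saline and 225, 504 and 504 CPM after PTZ. PTZ replicate 1 thus held less than the other two, and saline replicate 1 held the most of the saline libraries, but the groups did not overlap. The rise was 3.77 ± 0.37 (SE) on the log2 scale, with an adjusted p of 0.000446, and it missed the threshold on the SST libraries alone and with the replicate block. Junb was low in saline, at 2.06, 1.06, 1.48 and 1.65 CPM, and stood at 16.1, 15.8 and 16.8 CPM after PTZ. The PTZ libraries were nearly level with each other, and the rise was 3.37 ± 0.32 (SE, adjusted p = 0.000381). Exons of Junb overlap Prdx2 on the opposite strand, and Prdx2 had a log2 value of -0.26 (adjusted p = 0.989).

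Npas4, a factor that is switched on by neuronal depolarization and calcium more than by other stimuli, came next in size. Saline libraries held 15.3, 13.1, 4.22 and 9.74 CPM and PTZ libraries 156, 168 and 228 CPM. Saline replicate 3 was the lowest, and even the highest saline library was 10.2 times below the lowest PTZ library. The rise was 4.11 ± 0.32 (SE) on the log2 scale, with an adjusted p of 0.000107.

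The 4 Egr zinc finger factors differed in starting level and in size of rise. Egr1 was already abundant in saline, at 498, 361, 339 and 348 CPM, and reached 1045, 1409 and 1316 CPM. Saline replicate 1 stood clear of the other saline libraries, still far below the PTZ libraries, and the rise was 1.70 ± 0.17 (SE). Egr3 held a narrow 52.2, 59.8, 55.5 and 59.7 CPM in saline and 131, 204 and 185 CPM after PTZ, a rise of 1.61 ± 0.14 (SE). Egr2 went from 24.9, 18.7, 13.2 and 14.7 CPM to 102, 142 and 115 CPM, a rise of 2.74 ± 0.23 (SE). Egr4, the least abundant, went from 2.42, 0.993, 1.63 and 2.82 CPM to 8.91, 12.3 and 18.4 CPM, a rise of 2.73 ± 0.37 (SE) with an adjusted p of 0.00614. Per kilobase of annotated exon, mean levels after PTZ were 280 CPM for Egr1, 39.4 for Egr3, 35.2 for Egr2 and 6.16 for Egr4, so the order of levels stayed Egr1, Egr3, Egr2, Egr4, as in saline (86.2, 12.9, 5.26 and 0.915 CPM per kilobase). The call on Egr4 was lost without saline replicate 3 and without PTZ replicate 3.

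The gene lists here and below were chosen with earlier results of these data known, so their shares are not an independent test. Of the 28 listed immediate early transcription factors, 24 were tested: 8 rose, 23 had a positive log2 value, and 19 lay above all saline libraries. Their median log2 was 1.20, against -0.01 over all genes, of which 47.1% were positive and 4.57% lay above all saline libraries. Several of the 16 that missed the threshold had groups apart. The orphan nuclear receptor Nr4a1 held 44.3, 32.3, 14.7 and 30.2 CPM in saline and 88.5, 118 and 102 CPM after PTZ (log2 1.76 ± 0.35 SE, adjusted p = 0.143). Its relatives Nr4a2 (0.91 ± 0.18, adjusted p = 0.138) and Nr4a3 (1.02 ± 0.21, adjusted p = 0.143) also had no overlap between groups. With limma voom, Nr4a1, Nr4a2, Jun, Ier2 and Klf4 passed. Named after their values were seen, Ier2 (log2 2.23 ± 0.39), Klf4 (2.51 ± 0.46) and Jun (1.38 ± 0.30) had adjusted p of 0.0687, 0.0815 and 0.230. The 1 member with a negative value was Klf10, at -0.22 ± 0.39.

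Arc, which acts on AMPA receptor traffic at synapses, was the most abundant of the 4 called effectors per length and had the smallest rise of them. Saline libraries held 124, 143, 92.0 and 121 CPM and PTZ libraries 425, 537 and 641 CPM. The groups stood far apart, with a rise of 2.15 ± 0.17 (SE, adjusted p = 0.000107). Per kilobase of exon, Arc after PTZ (175 CPM) matched Fos (175 CPM) and lay below only Egr1 among the 17. In saline, at 39.3 CPM per kilobase, it lay below Egr1 and Rgs4. Of the 23 effectors tested, 4 rose (Arc, Dusp1, Zfp36 and Btg2). Of the 23, 22 were positive and 12 lay above all saline libraries, against 4.57% of all tested genes. The median log2 was 0.58. Plk2, a kinase of synaptic scaling, had groups apart at 0.58 ± 0.11 without passing (adjusted p = 0.114).

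Both called phosphatases switch off MAP kinases, the enzymes that carry growth and calcium signals to the nucleus. Dusp1, which acts in the nucleus, went from 74.6, 46.7, 43.9 and 50.9 CPM to 238, 352 and 317 CPM. PTZ replicate 1 was the lowest of its group and saline replicate 1 the highest of its own, and the rise was 2.48 ± 0.27 (SE, adjusted p = 0.000907). Dusp6, which acts on ERK in the cytoplasm, went from 15.3, 18.8, 14.4 and 16.4 CPM to 42.9, 49.2 and 43.4 CPM, a rise of 1.48 ± 0.18 (SE, adjusted p = 0.00303). These were 2 of 17 tested members of the MAP kinase feedback list, which had a median log2 of 0.15. In it, 12 were positive and 6 lay above all saline libraries, against 4.57% of all tested genes. Exons of Dusp1 overlap Ergic1 on the opposite strand, and Ergic1 had a log2 value of -0.33 (adjusted p = 0.989).

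Zfp36 encodes tristetraprolin, which binds AU-rich elements and recruits the deadenylase that destroys many immediate early mRNAs. It went from 2.66, 2.23, 2.07 and 1.86 CPM to 11.8, 12.8 and 18.9 CPM, a rise of 2.71 ± 0.31 (SE, adjusted p = 0.00161). Btg2, which also brings deadenylases to mRNA, had the widest saline spread of the 17: 13.8, 8.20, 3.70 and 3.99 CPM, against 56.7, 46.3 and 59.4 CPM after PTZ. Saline replicate 1 was highest here too, and the rise of 2.86 ± 0.40 (SE, adjusted p = 0.00918) missed the threshold without saline replicate 2, PTZ replicate 1 or PTZ replicate 3. Of 21 tested mRNA decay regulators these 2 rose, 16 were positive and 4 lay above all saline libraries, against 4.57% of all tested genes. The list had a median log2 of 0.13. Tob1, of the same family as Btg2, had 69.3, 57.9, 59.0 and 59.0 CPM in saline and 91.9, 113 and 105 CPM after PTZ (log2 0.75 ± 0.13, adjusted p = 0.0686).

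Among 29 delayed genes tested, 4 rose, 23 were positive and 8 lay above all saline libraries, against 4.57% of all tested genes. This list, too, was chosen with earlier results of these data known. The list had a median log2 of 0.15. Ptgs2 encodes the inducible cyclooxygenase that makes prostaglandins. It went from 7.74, 10.9, 10.4 and 5.64 CPM to 54.1, 58.4 and 59.2 CPM, a rise of 2.73 ± 0.22 (SE, adjusted p = 0.000109), with the PTZ libraries close together. Dio2 encodes the enzyme that turns thyroxine into active thyroid hormone. Its groups were tight, at 34.4, 36.1, 34.6 and 33.6 CPM against 62.4, 66.7 and 65.2 CPM, a rise of 0.90 ± 0.11 (SE, adjusted p = 0.00303). Rgs4 speeds the shut-off of G protein signals from receptors. It stood at 159, 186, 179 and 181 CPM in saline and 307, 286 and 303 CPM after PTZ, the smallest rise of the 17 at 0.76 ± 0.10 (SE, adjusted p = 0.00421), and it missed the threshold without PTZ replicate 1 or 3. Rasl11a, a small GTPase of the Ras superfamily, went from 6.17, 8.82, 10.1 and 9.64 CPM to 23.0, 21.1 and 28.2 CPM. Its rise of 1.47 ± 0.21 (SE, adjusted p = 0.0197) missed the threshold in each of the 7 fits that left out 1 library. Bdnf, the growth factor that Npas4 and CREB act on, stood at 4.96, 7.20, 5.33 and 7.93 CPM in saline and 10.9, 12.8 and 11.8 CPM after PTZ. The groups did not overlap, but its log2 value of 0.89 ± 0.29 (SE) did not pass (adjusted p = 0.989).

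The order of the libraries recurred across these genes. PTZ replicate 1 was the lowest PTZ library in 13 of the 17 genes, while replicates 2 and 3 were the highest in 8 genes each. In saline, replicate 1 was the highest in 9 genes and replicate 3 the lowest in 8. The coefficient of variation had a median of 24.5% over saline libraries (3.08% to 63.6%) and 16.9% over PTZ libraries (3.06% to 39.2%), and it was larger in saline for 12 of the 17 genes.

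Promoters are shown for the 2 called genes that rose most, chosen after their values were seen. Also shown are the called genes whose window holds a full cAMP response element (CRE, TGACGTCA, the CREB site) or a serum response element. The latter is the site of the serum response factor. The windows run from 250 bases before to 50 after the RefSeq start (GRCm38.p6), 5′ to 3′ on the gene's strand. Capitals mark the full CRE, its core TGACG on either strand, and the serum response element.

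Fosb, chr7:19309996-19310295, minus strand: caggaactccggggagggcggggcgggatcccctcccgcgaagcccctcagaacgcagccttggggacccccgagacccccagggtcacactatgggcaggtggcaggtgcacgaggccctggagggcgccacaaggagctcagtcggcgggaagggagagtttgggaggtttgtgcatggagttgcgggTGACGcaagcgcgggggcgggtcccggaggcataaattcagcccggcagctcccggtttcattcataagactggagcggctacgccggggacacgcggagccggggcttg
Npas4, chr19:4989922-4990221, minus strand: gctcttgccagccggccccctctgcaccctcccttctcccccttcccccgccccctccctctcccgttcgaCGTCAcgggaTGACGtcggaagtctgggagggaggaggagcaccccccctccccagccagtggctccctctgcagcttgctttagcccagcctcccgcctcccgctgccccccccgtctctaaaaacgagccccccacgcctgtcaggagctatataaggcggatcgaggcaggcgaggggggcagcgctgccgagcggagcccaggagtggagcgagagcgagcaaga
Dusp1, chr17:26508423-26508722, minus strand: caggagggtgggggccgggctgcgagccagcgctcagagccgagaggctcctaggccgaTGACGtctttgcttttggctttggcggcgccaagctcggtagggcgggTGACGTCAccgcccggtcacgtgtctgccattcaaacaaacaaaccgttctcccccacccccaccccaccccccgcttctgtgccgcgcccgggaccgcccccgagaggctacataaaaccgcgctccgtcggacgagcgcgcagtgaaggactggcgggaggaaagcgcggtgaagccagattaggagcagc
Btg2, chr1:134079106-134079405, minus strand: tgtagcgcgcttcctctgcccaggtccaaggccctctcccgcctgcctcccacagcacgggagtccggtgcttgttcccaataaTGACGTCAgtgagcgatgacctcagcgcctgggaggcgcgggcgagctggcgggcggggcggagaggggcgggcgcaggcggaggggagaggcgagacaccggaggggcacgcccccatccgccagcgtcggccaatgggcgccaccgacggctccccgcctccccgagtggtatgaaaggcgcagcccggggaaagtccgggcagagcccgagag
Dio2, chr12:90738989-90739288, minus strand: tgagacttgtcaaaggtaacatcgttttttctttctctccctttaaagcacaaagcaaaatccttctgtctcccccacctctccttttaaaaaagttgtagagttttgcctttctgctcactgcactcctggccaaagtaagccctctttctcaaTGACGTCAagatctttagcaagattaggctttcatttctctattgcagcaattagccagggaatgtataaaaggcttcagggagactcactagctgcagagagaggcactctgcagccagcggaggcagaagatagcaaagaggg
Egr2, chr10:67537619-67537918, plus strand: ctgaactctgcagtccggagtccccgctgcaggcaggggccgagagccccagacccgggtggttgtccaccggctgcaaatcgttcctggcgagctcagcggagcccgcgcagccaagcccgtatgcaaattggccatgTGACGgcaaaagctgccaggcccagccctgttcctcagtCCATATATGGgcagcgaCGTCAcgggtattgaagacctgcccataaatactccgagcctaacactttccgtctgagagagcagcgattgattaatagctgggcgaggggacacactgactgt
Zfp36, chr7:28379179-28379478, minus strand: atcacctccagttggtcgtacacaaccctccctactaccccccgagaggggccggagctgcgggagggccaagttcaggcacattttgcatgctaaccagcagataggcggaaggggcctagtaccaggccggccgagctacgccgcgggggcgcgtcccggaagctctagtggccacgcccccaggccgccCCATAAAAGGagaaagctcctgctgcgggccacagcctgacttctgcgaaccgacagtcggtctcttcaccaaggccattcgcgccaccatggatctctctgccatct

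RefSeq windows were found for 14 of the 17 genes, and Arc, Egr1 and Egr3 were not matched. The full CRE lay in 3 of the 14 (Dusp1 at -143, Dio2 at -95 and Btg2 at -166 from the start), against 3.80% of 8959 tested genes with a window and 1.79% of all 32851 windows. The core, which each full CRE also contains, lay in 12 of the 14 (85.7%), against 36.9% of tested genes and 20.8% of all windows. In Npas4 a pair of cores on opposite strands sits a few bases apart. The serum response element lay in 2 of the 14 (Egr2 at -72 and Zfp36 at -58), against 1.46% of tested genes. The AP-1 site TGACTCA was in 0 of the 14 and in 4.25% of tested genes. The TATA box TATAAA was in 4, against 8.39%, and the Egr sites GCGTGGGCG or GCGGGGGCG, searched like the rest on both strands, were in 2 (Fosb and Zfp36), against 8.10%. The matches are letters in a short window, and no test was made of them.

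Genes of inhibitory output gave no calls. Of 13 tested genes for making, loading and removing GABA, 0 were called, with a median log2 of 0.09. Gad2, which makes GABA for release, stood at 3729, 3662, 3666 and 3842 CPM in saline and 3977, 4552 and 5425 CPM after PTZ, with no overlap but no call (log2 0.32 ± 0.11, adjusted p = 0.989). None of 12 GABA-A receptor genes (median 0.05), 31 glutamate receptor genes (-0.03), 40 vesicle release genes (-0.01) or 23 inhibitory synapse organizers (0.06) was called. Of 15 neuropeptide genes, 0 were called and 9 were negative. Sst had -0.14 ± 0.18, and without saline replicate 1 its value was 0.03. Npy had -0.45 ± 0.19, Adcyap1, which encodes PACAP, had 1.05 ± 0.41, and the 17 granin and peptide processing genes had a median of 0.06. Identity factors, Lhx6 (-0.19 ± 0.12) among them, had 0 of 22 called.

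Channel genes gave 0 calls as well. The 39 voltage-gated potassium channel genes had a median log2 of -0.05, with 26 negative. Kcnc1, a fast-spiking channel subunit that is also a PV marker, had -0.26 ± 0.10. The 13 sodium channel genes had a median of 0.00 and the 19 calcium and pacemaker channel genes 0.05. Hcn4, a pacemaker channel, was lower in every PTZ library, at 6.99, 6.71 and 5.11 CPM against 10.0, 9.87, 8.51 and 10.2 CPM, without passing (log2 -0.62 ± 0.22, adjusted p = 0.989). Of 47 CREB, cAMP and calcium signalling genes none was called and 5 lay above all saline libraries (10.6%, against 4.57% of all tested genes). Among the 5 were the phosphodiesterases Pde4b (0.45 ± 0.14) and Pde1a (0.45 ± 0.16).

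Heat shock and endoplasmic reticulum stress lists had more positive than negative members and no called gene. Of 27 heat shock genes, 19 were positive and 5 lay above all saline libraries (median 0.10). Over all tested genes 47.1% were positive and 4.57% lay above all saline libraries. The co-chaperone Dnajb1 held 33.8, 30.9, 33.6 and 36.9 CPM in saline and 48.6, 42.3 and 47.8 CPM after PTZ (log2 0.45 ± 0.12, adjusted p = 0.647). Of 26 endoplasmic reticulum stress genes, 21 were positive (median 0.13), and the chaperone Hspa5 stood at 261, 310, 373 and 287 CPM against 448, 456 and 422 CPM (0.52 ± 0.12, adjusted p = 0.325). DESeq2 called both Hspa5 and Dnajb1. Of 16 glucocorticoid-responsive genes Dusp1 alone was called (median 0.25), and of 21 clock genes 0 were (median 0.13).

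**Figure D3:**
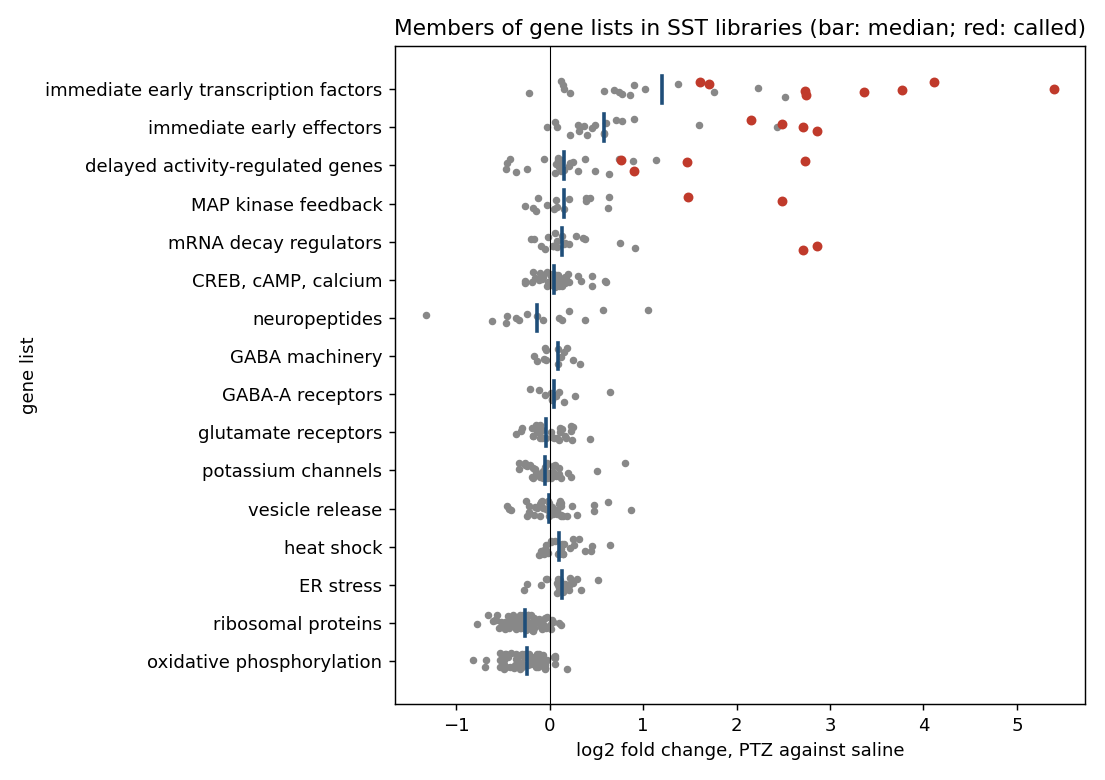
Log2 fold change of PTZ against saline for the tested members of 16 gene lists in SST libraries, one dot per gene, red where called, with a bar at each list's median. Called genes sit in the first 5 lists, and the ribosomal protein and oxidative phosphorylation lists lie mostly left of 0.

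Genes for ribosomal proteins and for oxidative phosphorylation had mostly negative values. Of 76 cytosolic ribosomal protein genes 70 were negative, 12 lay below all saline libraries and 0 were called, with a median log2 of -0.27. Rpsa had the lowest p, at 83.2, 67.2, 79.1 and 77.3 CPM in saline and 58.8, 54.7 and 55.0 CPM after PTZ (-0.45 ± 0.11, adjusted p = 0.536). Of 76 oxidative phosphorylation genes 71 were negative, 3 lay below all saline libraries and 0 were called, with a median of -0.24. Shares below all saline libraries were 15.8% for ribosomal protein and 3.95% for oxidative phosphorylation genes, against 5.84% of all tested genes. Over all tested genes 47.1% were positive. By mean log2(CPM + 0.5) relative to the saline mean, ribosomal protein genes stood at 0.34, -0.25, -0.15 and 0.07 in the saline libraries and at -0.22, -0.28 and -0.23 after PTZ. The groups overlapped, with saline replicate 1 highest. Oxidative phosphorylation genes stood at 0.44, -0.24, -0.28 and 0.09 against -0.06, -0.34 and -0.23, and again overlapped. On that scale the medians were -0.24 and -0.19, and without saline replicate 1 they were -0.14 and -0.03, with 58 and 48 of 76 negative. Transcript length moved with these values: of the 11349 genes with an annotated length, the shortest 2839 had a median log2 of -0.14 with 27.7% positive, and the longest 2836 had 0.07 with 67.7% positive. On the log2(CPM + 0.5) scale the medians were -0.12 and 0.07, and without saline replicate 1 they were -0.07 and 0.04, with 37.4% and 61.2% positive. The part of length in these lists was not tested.

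**Figure D4:**
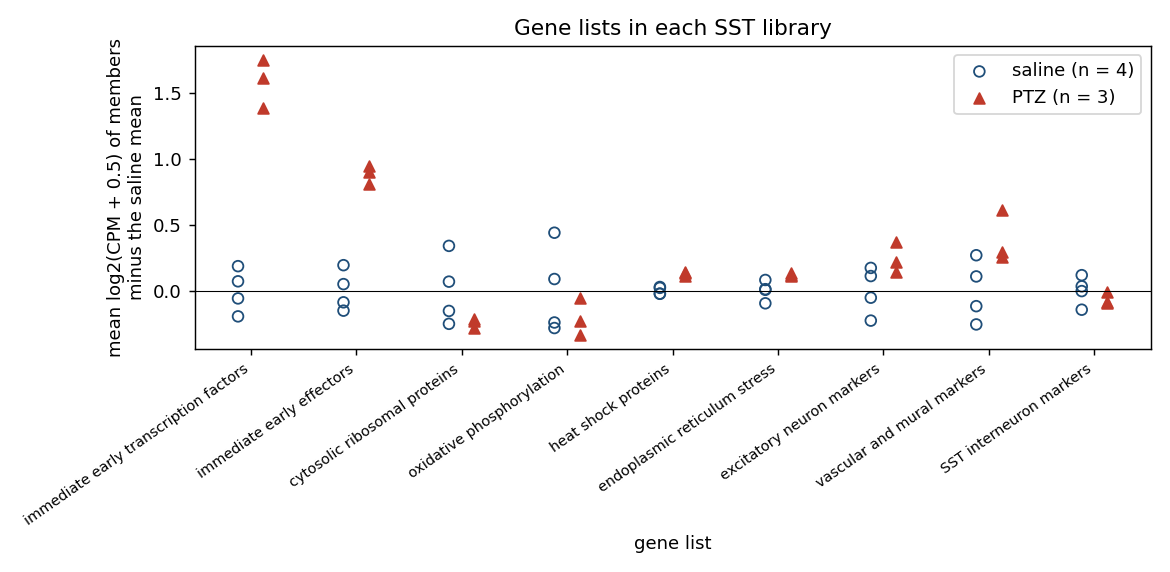
Mean log2(CPM + 0.5) of list members in each SST library, minus the saline mean, with open circles for saline and triangles for PTZ. Immediate early lists separate the groups, while ribosomal protein and oxidative phosphorylation values of PTZ lie within or near the saline range, which saline replicate 1 tops.

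RNA of other cells was read from marker lists. Summed SST markers stood at 12227 to 14473 CPM in saline and 13254 to 14852 CPM after PTZ, with overlap. Of these 12 markers 4 were positive and 8 negative, with a median log2 of -0.10. Gad2, among the 4, had a mean of 3725 CPM in saline and 4651 CPM after PTZ. Summed PV markers stood at 1147 to 1362 CPM in saline and 1012 to 1115 CPM after PTZ, with 7 of 7 negative. Pvalb had 12.0, 6.46, 6.22 and 6.71 CPM against 5.41, 4.05 and 3.90 CPM. Excitatory neuron markers stood at 1289 to 1861 CPM and 1600 to 1978 CPM, with 12 of 13 positive (median log2 0.21, and 0.10 on the log2(CPM + 0.5) scale without saline replicate 1). Astrocyte markers stood at 1191 to 1285 CPM and 1294 to 1497 CPM, and vascular and mural markers at 34.2 to 59.0 CPM and 66.2 to 87.2 CPM, so both sums lay above all saline libraries after PTZ. Of 12 astrocyte markers 7 were positive and 5 negative, and most of the gain in their sum came from the glutamate transporter gene Slc1a2, with a mean of 1014 CPM in saline and 1143 CPM after PTZ. Of 10 tested vascular markers 8 were positive, with a median log2 of 0.37. On the log2(CPM + 0.5) scale the median was 0.25, and 0.17 without saline replicate 1. Col4a2, a basement membrane collagen, had 9.13, 14.5, 21.3 and 10.4 CPM against 30.1, 38.1 and 29.9 CPM (1.24 ± 0.29, adjusted p = 0.325). Oligodendrocyte markers (325 to 382 and 328 to 429 CPM), microglia markers (46.3 to 54.5 and 45.2 to 48.2 CPM) and VIP and related interneuron markers (450 to 560 and 461 to 572 CPM) overlapped between groups. The defining markers Htr3a, Emx1, C1qa, Aif1, Tyrobp, Cldn5, Pecam1, Kdr and Tagln were not analysed here. Immediate early genes are also used by excitatory, glial and vascular cells, and the part of those cells in the rises was not tested. In a pull-down, fewer cells of a type and less RNA per cell cannot be told apart.

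The genes nearest the threshold on the other side were led by Nfkbiz, a regulator of NF-kappaB targets, at 3.81, 4.72, 5.18 and 2.72 CPM in saline and 12.9, 14.4 and 8.89 CPM after PTZ (log2 1.56 ± 0.27, adjusted p = 0.0609). Irf2bp2, a transcriptional corepressor, had 0.52 ± 0.10 (adjusted p = 0.0994), and Arl4d, a small GTPase of the Arf family, had 1.28 ± 0.25 (adjusted p = 0.140). Among lower genes at a mean of 5 CPM or more whose groups did not overlap, Rpsa and the ferritin light chain gene Ftl1 (-0.85 ± 0.21) came first, each with an adjusted p of 0.536. DESeq2 called both lower, and edgeR on the SST libraries alone called Ftl1. Ftl1 stood at 67.3, 46.6, 50.4 and 71.1 CPM in saline and 36.2, 29.7 and 32.3 CPM after PTZ. The vesicle genes Syt3 (-0.41 ± 0.11) and Rab3b (-0.38 ± 0.10), the lysosomal sphingomyelinase Smpd1 (-0.42 ± 0.12), the immunophilin Fkbp8 (-0.51 ± 0.14) and the kinase Limk1 (-0.59 ± 0.17) also lay below all saline libraries, with adjusted p of 0.672 to 0.927. Ferritin and ribosomal protein genes have many near-identical pseudogene copies, so their counts are uncertain where reads were split.

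The response was then set beside that of PV libraries to PTZ, to see whether it differed between the Cre lines. Both responses were fitted jointly, so SST values here differ slightly from those above. Of 11743 genes in both tables, 0 differed (0% called, edgeR), with 602 at an unadjusted p under 0.05, and limma voom called 0 and DESeq2 1. Line and batch cannot be told apart here. The 17 genes all had positive log2 values in PV libraries. Fosb had 5.39 ± 0.39 in SST and 4.45 ± 0.43 in PV libraries, a difference of 0.93 with a 95% interval of -0.16 to 2.02. Npas4 had 4.10 ± 0.41 and 4.84 ± 0.48, a difference of -0.74 (-1.92 to 0.45). For Fos the difference was -0.18 (-1.50 to 1.14), and for Egr1 0.19 (-1.24 to 1.61), so a 2-fold difference in either direction lay inside both intervals. With all libraries, Dusp1 showed the widest gap of the 17, with 2.47 ± 0.27 in SST and 1.03 ± 0.27 in PV libraries. The difference was 1.44 (0.65 to 2.23, adjusted p = 0.820). PV libraries of batch 1 held 77.6, 77.6 and 67.9 CPM of Dusp1 in saline and 206, 111, 142 and 148 CPM after PTZ. PV saline replicate 1 was high in many immediate early genes. It held 329 CPM of Egr1 against 36.2 and 56.4 CPM in the other PV saline libraries, 202 CPM of Arc against 34.2 and 71.7 CPM, and 15.7 CPM of Fos against 3.02 and 5.98 CPM. Without it, the difference between SST and PV responses was negative for 13 of the 17 genes, against 7 with it. Egr1 then stood at -1.41 (-2.05 to -0.77, adjusted p = 0.151), Fos at -1.03 (-2.22 to 0.17), Fosb at 0.23 (-0.75 to 1.21) and Dusp1 at 1.41 (0.56 to 2.26). Ptgs2 stood at -1.59 (-2.62 to -0.56) and Npas4 at -1.50 (-2.56 to -0.44), so the gap of Dusp1 was no longer the widest. The unadjusted interval lay below 0 for Ptgs2, Npas4, Egr1, Egr2, Egr3, Dio2 and Dusp6 and above 0 for Dusp1 alone. With that library included, it excluded 0 for 1 of the 17. The sign of the difference changed for Egr1, Arc, Junb, Egr2, Egr3 and Egr4 and stayed the same for the others of the 17. The count called stayed at 0, with 1094 genes at an unadjusted p under 0.05. Rasl11a was near the floor of the PV table, at 0.439 to 1.13 CPM in saline and 0.718 to 1.92 CPM after PTZ.

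The gene nearest to a difference between the lines was Pvalb, with -0.83 ± 0.34 in SST and 2.03 ± 0.32 in PV libraries, a difference of -2.86 ± 0.46 (adjusted p = 0.112). PV libraries held 15.3, 20.7 and 21.1 CPM of it in saline and 75.5, 40.4, 70.6 and 124 CPM after PTZ. These levels in PvalbCre libraries of batch 1 were below the 362 and 243 CPM of PV saline libraries in batch 2. The difference passed with DESeq2, with a replicate block and without PV PTZ replicate 2. Frmd4b (-1.58 ± 0.38) and Ptpru (-1.04 ± 0.26) followed, with adjusted p of 0.820 each.

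Set against the answer of SST libraries to CFC, PTZ gave a larger log2 value for 10 of 11428 genes and a smaller one for 0, or 0.0875% (edgeR). Stimulus, control handling and batch cannot be told apart here. The batch 4 libraries also held more of another interneuron type's marker: on the joint scale, Pvalb stood at 78.0 to 439 CPM in them, at 4.38 to 13.6 CPM in the SST libraries of batch 2 and at 408 and 274 CPM in the PV libraries. Npy stood at 2420 to 3213 CPM in batch 4 and 135 to 268 CPM in SST libraries of batch 2. The part of these differences in the comparison was not tested. Of the 17 genes, Fosb, Junb and Rgs4 were among the 10. Fosb had 5.39 ± 0.39 after PTZ and 1.02 ± 0.59 after CFC, a difference of 4.37 ± 0.75 (adjusted p = 0.0433). In batch 4 it was near the floor, at 0.687, 1.66 and 0 CPM in home cage libraries and 1.40, 1.54 and 1.65 CPM after CFC. Junb had 3.36 ± 0.26 and 1.36 ± 0.24, a difference of 2.00 ± 0.35. Its level in batch 4 was 51.4, 33.9 and 34.5 CPM in the home cage and 107, 104 and 97.8 CPM after CFC. Rgs4 had 0.76 ± 0.10 and -0.06 ± 0.10, with 186, 199 and 166 CPM in the home cage and 175, 175 and 177 CPM after CFC. Saline libraries of batch 2 held 1.06 to 2.06 CPM of Junb. The tables of batches 2 and 4 were deposited separately, so differences in level between them, Pvalb and Npy included, cannot be told apart from batch.

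The other 7 of the 10 were Col4a2, Acta2, Degs2, Podxl, Vim, Ahnak and Pdgfrb, of which Col4a2, Acta2 and Pdgfrb are on the vascular and mural marker list. Their log2 values after PTZ ran from -0.01 for Pdgfrb to 1.24 for Col4a2, and after CFC from -4.13 for Acta2 to -1.86 for Col4a2. Acta2, the actin of smooth muscle, stood at 20.9, 59.2 and 70.2 CPM in home cage libraries and 1.77, 3.68 and 3.11 CPM after CFC. For these 7 genes the value after CFC was further from 0 than the value after PTZ, and the part of vascular RNA in them was not tested. Leaving out home cage replicate 1 gave 59 genes, and leaving out any other library gave 0 to 5, so the count of 10 rests on single libraries.

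After CFC, 13 of the 17 genes had positive log2 values and 4 negative, and the difference from PTZ was positive for 15 and negative for 2 (Egr1 and Egr2). These genes were chosen for their rise after PTZ. The unadjusted 95% interval of the difference excluded 0 for 11 of them. Fos had 3.76 ± 0.39 after PTZ and 3.13 ± 0.43 after CFC, a difference of 0.64 (95% interval -0.52 to 1.78), with 24.5, 12.0 and 8.37 CPM in the home cage and 124, 138 and 129 CPM after CFC. Egr1 had 1.69 ± 0.16 and 2.30 ± 0.18, a difference of -0.61, with an unadjusted interval below 0 (-1.10 to -0.11) and an adjusted p of 0.565. Nr4a1 had 1.75 ± 0.33 and 2.45 ± 0.37, a difference of -0.70 (-1.74 to 0.33). Egr2 differed by -0.27 (-1.90 to 1.35) and Rasl11a by 0.05 (-0.74 to 0.84). For Npas4 (2.55, 0.91 to 4.19), Ptgs2 (2.90, 0.92 to 4.87), Zfp36 (2.94, 1.39 to 4.48) and Egr3 (1.19, 0.61 to 1.78) the unadjusted interval lay above 0, but the adjusted p ran from 0.213 to 0.451. Levels of these genes were low in the batch 4 libraries. They were 0 to 5.77 CPM for Npas4, 0 to 4.95 for Ptgs2, 0.652 to 2.91 for Zfp36 and 5.39 to 10.7 for Egr3. The CFC and PV contrasts use the same SST libraries of batch 2, so they are not independent of the rises above.

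**Figure D5:**
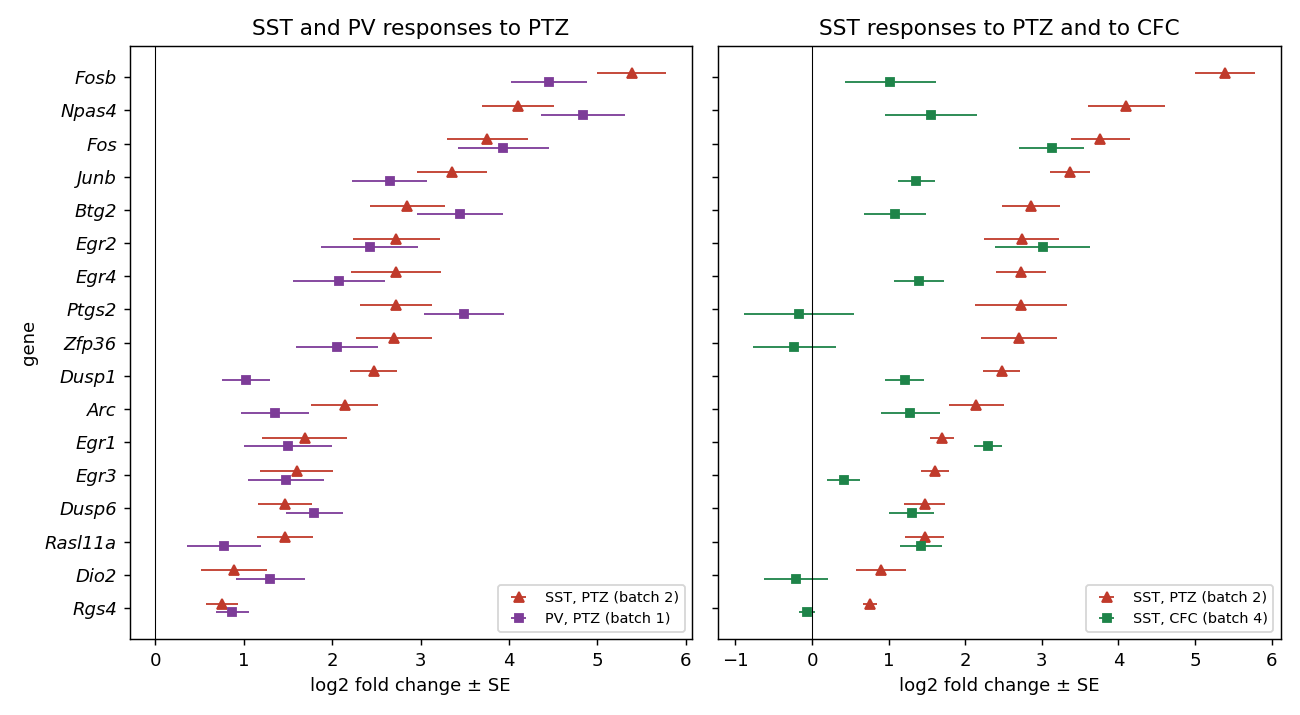
Log2 fold change ± SE of the 17 genes in joint fits of all libraries: SST and PV responses to PTZ on the left, SST responses to PTZ and to CFC on the right. On the left the symbols lie close or overlap for most genes, with Dusp1 furthest apart. On the right Fosb, Ptgs2 and Zfp36 show the widest gaps and Egr1 lies further right after CFC. Fosb, Ptgs2 and Zfp36 were low in all batch 4 libraries.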

How the data were processed

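RNA bound to HA-tagged ribosomes was sequenced, and the titles gave groups and replicate numbers. The submitters' processing notes name HTSeq 0.11.0, STAR 2.5.2a, cutadapt 1.18 and DESeq2, with the builds GRCm39 and mm10, and give no roles. Whether counting used strand is not stated in them. For batches 2 and 4 the authors deposited raw counts, whole numbers for each gene, with no normalization. For batch 1 the authors deposited expected counts, 11.3% of them not whole, which were rounded before testing. The batch 2 table listed 11808 genes and no mitochondrially encoded transcripts. Unused columns of values numbered 0.

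The test was the two-sided quasi-likelihood F test of edgeR 4.0.16 (R 4.3.3) with TMM scaling, filterByExpr, robust dispersion and Benjamini-Hochberg adjustment over all genes tested at 0.05. All 9 libraries of the batch 2 table shared the estimate of the spread. Differences of responses were contrasts of contrasts over genes shared by 2 tables. Levels are TMM-scaled CPM, and each SE was obtained from the log2 fold change and the F statistic. Alternatives used DESeq2 1.42.0, limma 3.58.1 or a term for sex, read from Xist and Y-linked genes. The Y-linked Ddx3y stood at 58.7 and 48.5 CPM in saline replicates 1 and 3 and 77.4 CPM in PTZ replicate 3. Xist stood at 63.2 and 58.1 CPM in saline replicates 2 and 4 and 98.2 and 138 CPM in PTZ replicates 1 and 2. Both SST groups thus held both sexes, in unequal shares between groups. The fit was tested on simulated data. No 2 replicates were alike within sampling noise (chi-square per degree of freedom 12.7 to 31.4). Coordinates are from GENCODE on GRCm38, matched by symbol.

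Named genes were Sst, Pvalb, Fos, Nr4a1 and Bdnf, all called genes, up to 4 called or 2 lowest-p members of each list, up to 8 uncalled genes per direction without overlap at 5 CPM or more, and up to 10 called or 3 lowest-p genes per difference. The libraries, lists and rules were chosen with earlier results of these data known. Leaving saline replicate 1 out of the list and length medians was chosen after seeing the data.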

Additional observations from a re-analysis of the deposited data

Results flagged for a closer look

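The 77 genes of the naming rule were checked for a saline library far from the other 3, and 4 were found, where chance alone gives about 1 in 20. Saline replicate 1 was far above the rest for Pvalb (12.0 CPM against 6.22 to 6.71), Egr1 (498 CPM against 339 to 361) and Tob1 (69.3 CPM against 57.9 to 59.0). Saline replicate 3 was far above the rest for Gm10052 (34.6 CPM against 5.03 to 6.17), an unnamed predicted gene that had a log2 value of -2.61 after PTZ and did not pass.

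The response to PTZ differed from that to CFC in SST libraries, by the test of the difference itself, for 10 genes, all with larger values after PTZ. The differences on the log2 scale were 4.37 for Fosb, 2.00 for Junb and 0.82 for Rgs4, genes that rose after PTZ. They were 3.10 for Col4a2, 4.81 for Acta2, 4.11 for Degs2, 3.88 for Podxl, 3.04 for Vim, 3.59 for Ahnak and 3.55 for Pdgfrb, none of which was called after PTZ. For these 7 the home cage libraries of batch 4 held 3.96 CPM (Degs2) to 70.2 CPM (Acta2) and the CFC libraries 0.269 CPM (Degs2) to 9.03 CPM (Vim). Stimulus and batch cannot be told apart in these differences.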

How the results depend on the processing

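The count of genes called after PTZ was 17 with RLE scaling, upper-quartile scaling, library totals, no low-count filter and no robust estimation, 18 at a mean of 5 CPM or more and 19 with a term for sex. It was 38 with DESeq2 (35 higher and 3 lower, all 17 included), 27 with limma voom (all 17 included) and 38 on the 7 SST libraries alone (34 higher and 4 lower, without Fos and Btg2). Leaving out 1 library gave 13 to 17. The replicate block gave 8 and lost Fos, Dusp1, Rgs4, Dio2, Btg2, Dusp6, Rasl11a, Zfp36 and Egr4. Libraries with the same number correlated at -0.00, 0.24 and 0.04, and those with different numbers at -0.24 to 0.19. So few same-number pairs cannot decide whether the numbers pair the libraries. The 8 genes Fosb, Npas4, Arc, Ptgs2, Egr1, Egr2, Egr3 and Junb passed under all 18 alternatives.

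For SST minus PV responses the count was 0 and became 1 (Pvalb) with DESeq2, with the replicate block and without PV PTZ replicate 2. The other fits that left out 1 library gave 0, and without PV saline replicate 1 the difference was negative for 13 of the 17 genes against 7 with it. For PTZ minus CFC responses the count of 10 became 62 with DESeq2 (55 higher), 2 with limma voom and 0 with the replicate block. It ran from 0 to 59 when 1 library was left out, and was 0 when saline replicate 1, 2 or 4, any PTZ library or CFC replicate 3 was the one left out. The causes were not tested.

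The log2 value of Pdgfrb in SST PTZ against saline was -0.00 and changed sign with DESeq2 (0.000601), limma voom (0.0752), RLE scaling (0.00202), the replicate block (0.0559), SST libraries alone (0.00932), the sex term (0.0278), without saline replicate 3 and without PTZ replicate 3 (0.144). Leaving out 1 library gave -0.172 to 0.306 for it. Sst in SST PTZ against saline changed sign without saline replicate 1, with -0.282 to 0.0287 when 1 library was left out. Library totals moved the share of positive genes from 47.1% to 39.7% and the median of all genes to -0.05. Seizure severity, dose and time could not be examined, and 3 and 4 libraries a group limit the precision.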
